A study of Homo sapiens with 4 samples.

Results

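The integrins described here are 10 subunit genes outside the hemidesmosome, measured in MCF10A cells, with 5 alpha subunits (ITGA1, ITGA2, ITGA3, ITGA5 and ITGAV) and 5 beta subunits (ITGB1, ITGB3, ITGB5, ITGB6 and ITGB8). They were taken by gene symbol, and all 10 were found among 25317 symbols, each in 1 row of every table. MCF10A is an established human line of non-tumour mammary epithelium, grown here in medium with horse serum, epidermal growth factor, cholera toxin and insulin. The cells received a lentivirus of the pHIV-ZsGreen type that carried Zeb1, Snail or Ovol2, or an empty vector, and fluorescent cells were sorted 6 days later as a pool. Zeb1 and Snail are transcription factors known to induce the epithelial-to-mesenchymal transition, and Ovol2 drives the opposite transition. Each group held 1 library of messenger RNA, so no spread between cultures was measured and no difference below has a replicate check.

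Integrins are receptors of the cell surface, each made of 1 alpha and 1 beta subunit, that bind the extracellular matrix outside the cell and, through talins, kindlins and focal adhesion proteins, the actin cytoskeleton inside it. ITGB1 is the common beta subunit: with ITGA1 or ITGA2 it binds collagens, with ITGA3 laminins and with ITGA5 fibronectin. ITGAV pairs with ITGB1, ITGB3, ITGB5, ITGB6 or ITGB8 to form receptors for ligands with an Arg-Gly-Asp motif, such as fibronectin, vitronectin and the latent form of TGF-beta. In epithelia, ITGB6 is known as an epithelium-restricted subunit that appears in wounds and carcinomas, whereas ITGA5 and ITGB3 are more typical of mesenchymal, endothelial or blood cells.

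Start-site sequences were available from RefSeq (GRCh38.p14) for 8 of the 10 genes, in 12 windows that run from 250 bases before to 50 bases after an annotated start. Shown are the windows of ITGA1 and ITGA5, whose levels as deposited spanned 128-fold and 54.0-fold between libraries, the widest of the 10 genes. The third is that of ITGB6, which was 4.40-fold lower with Zeb1, the largest fall there among the 10. The 3 windows shown do not stand for the 12 in how often they hold a motif named below. They were read for the letters CACCTG or CAGGTG, the E-box that Zeb1 and Snail are known to bind, and for CCGTTA or TAACGG, a motif known for OVO-type zinc fingers, on both strands; the capitals mark a match. The ITGA1 window is chr5:52787666-52787965 (plus strand), the ITGA5 window chr12:54419217-54419516 (minus strand) and the ITGB6 window chr2:160200223-160200522 (minus strand), each printed 5′ to 3′ along its gene.
ITGA1: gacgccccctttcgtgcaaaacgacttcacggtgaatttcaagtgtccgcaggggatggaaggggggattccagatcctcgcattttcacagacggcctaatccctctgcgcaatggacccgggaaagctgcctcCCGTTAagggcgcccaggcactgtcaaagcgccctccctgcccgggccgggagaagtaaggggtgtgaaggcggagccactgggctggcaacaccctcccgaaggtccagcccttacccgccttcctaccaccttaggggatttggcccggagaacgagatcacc
ITGA5: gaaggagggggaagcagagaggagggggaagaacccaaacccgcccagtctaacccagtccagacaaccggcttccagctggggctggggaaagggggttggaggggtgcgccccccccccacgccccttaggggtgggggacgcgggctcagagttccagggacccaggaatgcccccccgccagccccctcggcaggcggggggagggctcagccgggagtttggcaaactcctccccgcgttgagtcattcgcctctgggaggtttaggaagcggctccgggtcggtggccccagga
ITGB6: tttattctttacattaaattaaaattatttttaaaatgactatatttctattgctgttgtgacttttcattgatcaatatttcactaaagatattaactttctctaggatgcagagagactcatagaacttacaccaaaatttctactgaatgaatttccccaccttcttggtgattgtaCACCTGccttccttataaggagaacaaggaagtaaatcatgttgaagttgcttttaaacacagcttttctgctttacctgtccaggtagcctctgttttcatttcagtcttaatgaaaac
The ITGB6 window held CACCTG, beginning 70 bases before the start, and the ITGA1 window held CCGTTA, beginning 115 bases before it. The ITGA5 window held neither. Of the 12 windows, 2 held the E-box, the other being 1 of the 3 ITGB5 windows, and 1 held the OVO motif. The same letters occurred in 20.6% and 3.07% of all 35116 windows of this length in the table. A match is a description of these letters and not evidence of binding.

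The level of a gene is its deposited expression value, taken as FPKM, fragment counts normalised for transcript length and sequencing depth. Differences are log2 ratios of FPKM + 1, factor library over empty vector library, and the added 1 understates the difference of low genes. A gene passed the filter when it reached 1 FPKM in the factor library or the control, and it was called higher or lower where the log2 ratio was at least 1 in size, which is 2-fold on this scale. The spacing of the lowest values put the depth of the libraries between about 24100000 and 34300000 fragments. ZEB1, SNAI1 and OVOL2 were each highest in the library named for them, at 17.3, 99.7 and 78.3 FPKM. The 8 mammary epithelial markers summed to 2544, 7498 and 5112 FPKM in the Zeb1, Snail and Ovol2 libraries, against 9149 FPKM in the empty vector library. KRT17 made up most of each sum, at 4624 FPKM with Ovol2 against 5736 with the empty vector. All 8 were below the empty vector with Ovol2, to unlike degrees, with KRT5 at 215 against 2929 FPKM and KRT18 at 87.5 against 96.1. The 9 leukocyte markers summed to 23.3, 3.94 and 9.22 FPKM in the Zeb1, Snail and Ovol2 libraries, against 4.76 FPKM with the empty vector. CD14 made up most of the Zeb1 sum, at 17.0 FPKM, while the defining PTPRC was at or below 0.0177 FPKM and CD3E was listed at 0 in all 4 libraries. The 5 endothelial markers summed to between 0.108 and 1.55 FPKM and the 5 platelet markers to between 0.339 and 0.743 FPKM. The part of these markers in the integrin values was not tested. The RNase RNAs RMRP and RPPH1 took between 18.7% and 40.6% of all FPKM, the most in the Ovol2 library. Fewer cells with a transcript and less transcript per cell cannot be told apart in these bulk libraries.

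In the empty vector library 9 of the 10 genes were expressed above 1 FPKM, and the exception was ITGB3 at 0.0814 FPKM. ITGB1 was the most abundant at 201 FPKM, followed by ITGA3 at 99.1, ITGB6 at 86.5, ITGAV at 76.0 and ITGA5 at 32.5 FPKM. ITGB8 (15.7 FPKM), ITGB5 (15.5), ITGA1 (10.1) and ITGA2 (8.09) were lower and lay close together. With 1 library, whether neighbours in this order differ beyond the spread between cultures was not measured. Outside this group 16 further integrin subunit genes were looked up in the tables. Of these the hemidesmosome pair ITGA6 and ITGB4 was the highest, at 249 and 134 FPKM in the empty vector library.

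**Figure D1:**
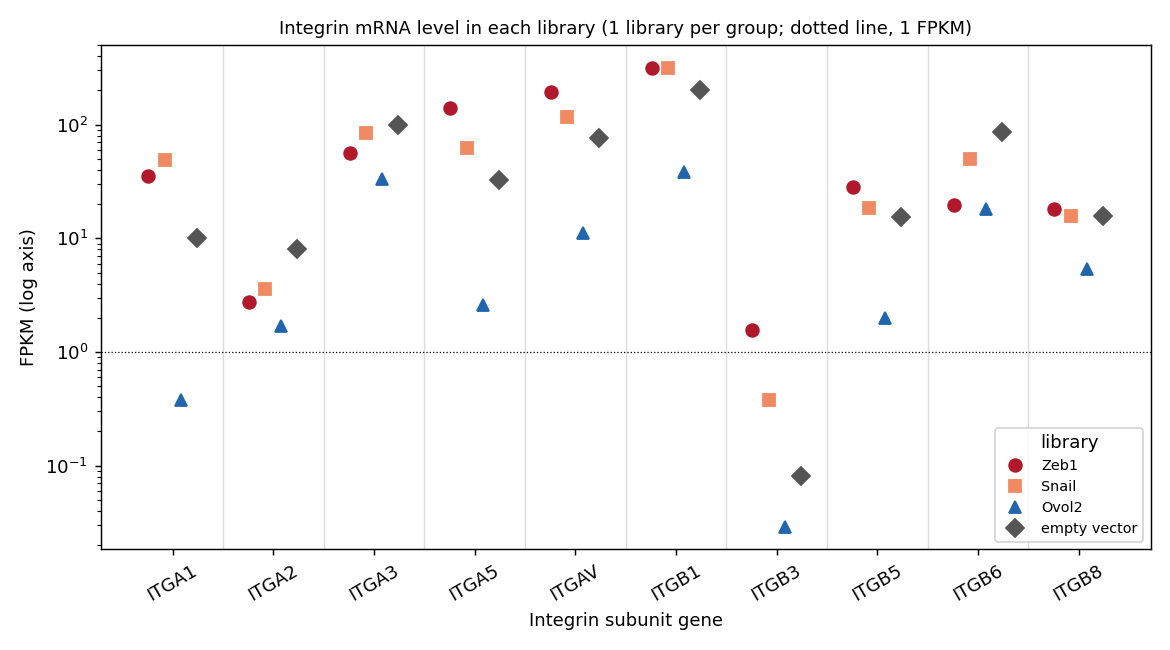
Level of each of the 10 integrin genes (x axis) in FPKM on a log axis, with 1 point per library (Zeb1, Snail, Ovol2, empty vector). On this deposited scale the Ovol2 point is the lowest for all 10 genes, while the Zeb1 and Snail points lie above the empty vector for ITGA1, ITGA5, ITGAV, ITGB1, ITGB3 and ITGB5 and below it for ITGA2, ITGA3 and ITGB6.

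The Zeb1 comparison asked which genes a factor of the mesenchymal transition turns up or down in these cells. Of the 10 integrin genes, 4 were called higher with Zeb1, namely ITGA5, ITGA1, ITGAV and ITGB3, and 2 were called lower, ITGB6 and ITGA2. Among all 11922 genes that passed the filter, 4.52% were higher and 8.49% lower by this rule. Of the genes called, 34.8% were higher, and between 48.1% and 62.7% under the other scalings. The median log2 ratio of the 10 was 0.74, against -0.09 for all genes passing the filter. ITGB3 passed the filter only through the Zeb1 library and so could not have been called lower. Of the 9 that reached 1 FPKM without it, in the control, 3 were called higher and 2 lower.

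The Snail comparison put this question to the second such factor, and the integrins lay closer to the control. ITGA1 alone was higher by 2-fold or more among the 9 genes that passed the filter, and 0 were lower, where 1% of all 11644 genes were higher and 1.5% lower. The median log2 ratio of the 9 was 0.25, against 0.12 for all genes. ITGA2 lay just short of the rule at -0.98, and ITGA5 at 0.91. ITGA2 was past it when the ratios were centred on the median of well expressed genes (-1.12), with a pseudocount of 0.1 (-1.14), after rescaling without RMRP and RPPH1 (-1.01), after correction for transcript length (-1.25) and in the authors' deposited table (-1.16). ITGA5 was past it under upper quartile scaling (1.06). Of all genes called with Snail 40.1% were higher, and 23.7% after centring or 56.1% under upper quartile scaling.

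Ovol2 against the empty vector addressed what the opposite factor does in cells that are already epithelial. Each of the 9 integrin genes that passed the filter was lower by 2-fold or more, and 0 were higher, where 25.1% of all 11812 genes were lower and 6.82% higher. Of the genes called, 21.4% were higher, and 32.8% after centring, 75.7% under upper quartile scaling and 56.5% after correction for length. After rescaling without RMRP and RPPH1 13% were. The median log2 ratio of the 9 was -2.36, against -0.51 for all genes. ITGA5 (-3.23), ITGA1 (-3.01) and ITGAV (-2.66) had the lowest ratios and ITGB8 (-1.39) and ITGA3 (-1.54) the nearest to 0.

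The ratios of all genes in the Ovol2 comparison moved with transcript length, with medians of 0.26 over the shortest 10% of transcripts and -1.07 over the longest 10%, and all 10 integrin transcripts are longer than the median gene, at 3784 to 10757 bases. After subtraction of the running median at the same length, 6 of the 9 were still lower by 2-fold or more (7.55% of all genes were) and ITGA3 (-0.78), ITGA2 (-0.74) and ITGB8 (-0.32) no longer passed. Under upper quartile scaling 7 of the 9 were lower (7.35% of all genes were), without ITGA3 (-0.63) and ITGB8 (-0.57). All 9 ratios remained below 0 under every alternative run, with ITGA5 between -3.66 and -2.34 and ITGB1 between -2.58 and -1.45.

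**Figure D2:**
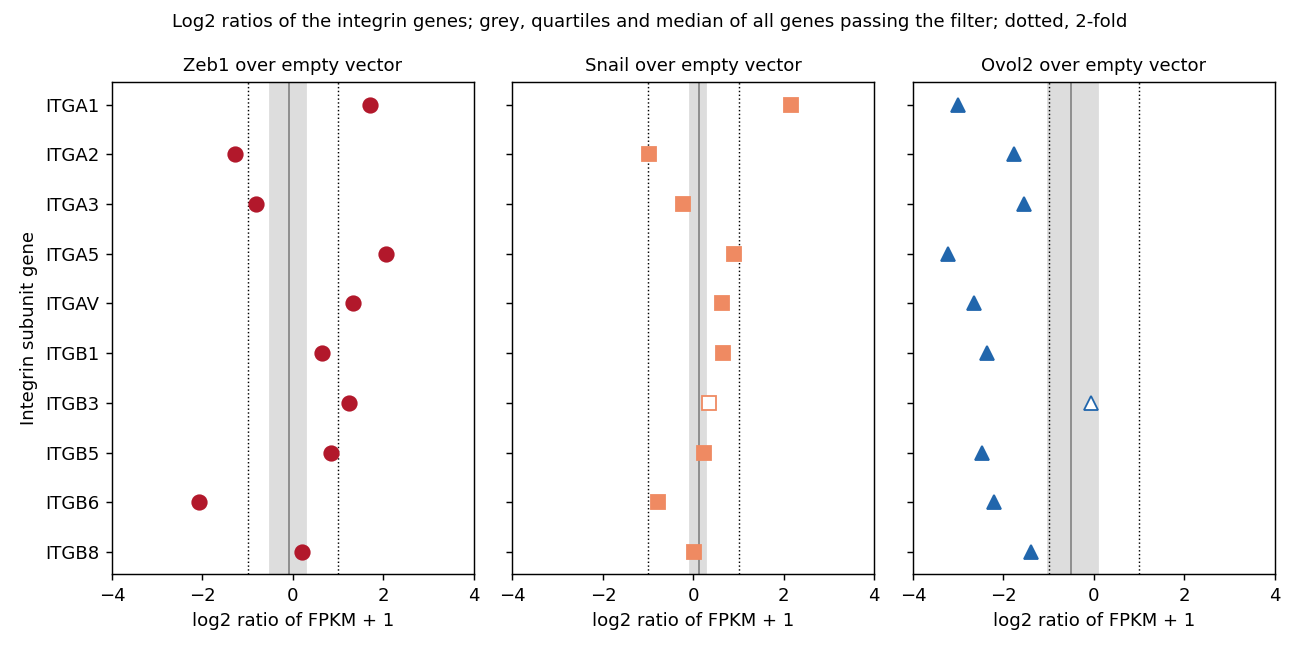
Log2 ratio of FPKM + 1 over the empty vector library (x axis) for each integrin gene in the Zeb1, Snail and Ovol2 comparisons; the grey band and line give the quartiles and the median of all genes passing the filter, dotted lines 2-fold, and open symbols a gene that did not pass the filter. Ratios lie on both sides of 0 with Zeb1 (from -2.08 to 2.06) and all filled symbols lie left of -1 with Ovol2.

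**Figure D3:**
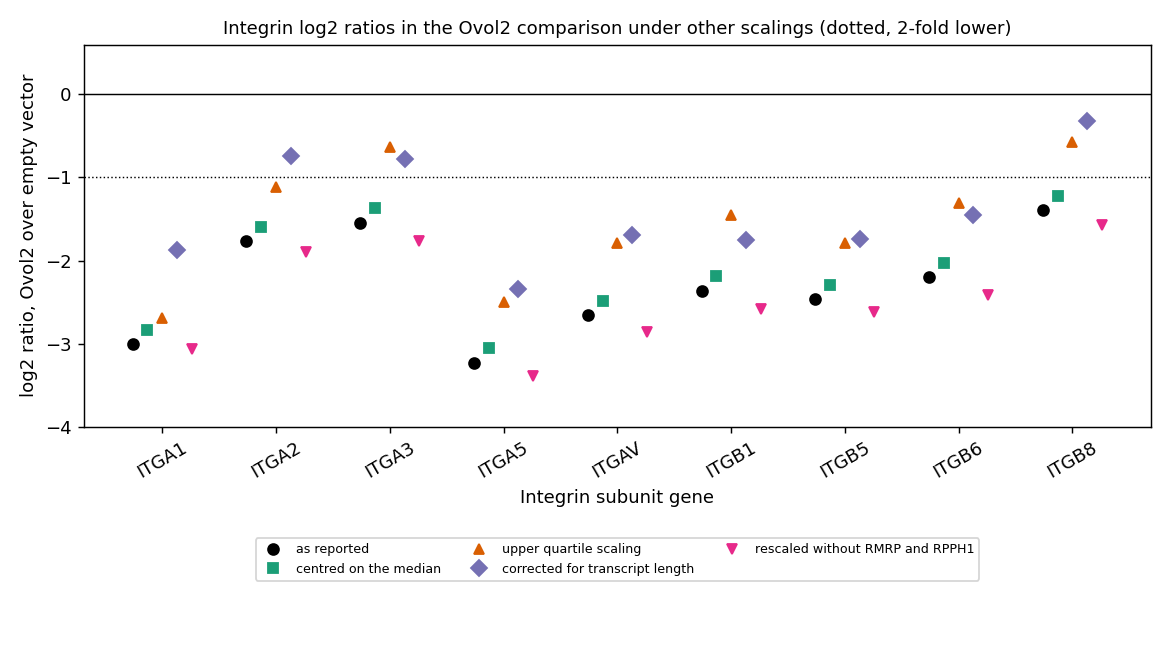
Log2 ratio of the 9 integrin genes in the Ovol2 comparison (y axis) as reported and under 4 other scalings, with the dotted line at 2-fold lower. ITGA5 lies below the line under each of them, and ITGB8 reaches -0.32 after correction for transcript length.

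The fibronectin receptor subunit ITGA5 was at 139 FPKM with Zeb1, 61.8 with Snail and 2.57 with Ovol2, against 32.5 with the empty vector. It was 4.28-fold higher with Zeb1 and 12.6-fold lower with Ovol2 than with the empty vector, as plain ratios of FPKM. Its level thus spanned 54.0-fold between the highest and the lowest library. ITGA1, a collagen receptor subunit, had the widest span as deposited of the genes above 1 FPKM in the empty vector library, 128-fold. It was at 35.2 FPKM with Zeb1, 48.9 with Snail and 0.381 with Ovol2, against 10.1 with the empty vector. It was 3.48-fold higher with Zeb1, 4.83-fold higher with Snail and 26.6-fold lower with Ovol2. The log2 ratio of ITGA1 with Ovol2 lay between -4.73 and -1.87 under the alternatives. After correction for transcript length ITGA5 had the wider span (log2 ratios from -2.34 to 1.97, against -1.87 to 1.93 for ITGA1).

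ITGA2, the other collagen receptor subunit among these genes, lay below the control in the Zeb1 and Snail libraries, where ITGA1 lay above it. It stood at 2.76, 3.61 and 1.68 FPKM in the Zeb1, Snail and Ovol2 libraries, against 8.09 FPKM in the empty vector library. All 3 factor libraries were thus below the control, by 2.93-fold, 2.24-fold and 4.81-fold. Within a library, ITGA1 stood to ITGA2 as 12.8 to 1 with Zeb1, 13.5 to 1 with Snail and 0.227 to 1 with Ovol2, against 1.25 to 1 with the empty vector. Such a ratio within a library does not depend on how the libraries were scaled to each other. It was not corrected for the trend with transcript length seen with Ovol2, and the 2 transcripts differ in length (10757 and 7869 bases).

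The laminin receptor subunit ITGA3 was at 56.1 FPKM with Zeb1, 84.6 with Snail and 33.4 with Ovol2, against 99.1 with the empty vector. It was highest in the empty vector library and had the narrowest span of the 10 genes as deposited, 2.97-fold, whereas after correction for transcript length ITGB8 had the narrower one (log2 ratios down to -0.32, against -0.85 for ITGA3). ITGAV, the alpha subunit of the Arg-Gly-Asp receptors with several beta partners, was at 192, 117 and 11.2 FPKM in the Zeb1, Snail and Ovol2 libraries, against 76.0 in the empty vector library. That made it 2.53-fold higher with Zeb1, 1.55-fold higher with Snail and 6.79-fold lower with Ovol2.

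ITGB1, the common beta subunit, was at 314 FPKM with Zeb1, 318 with Snail and 38.3 with Ovol2, against 201 with the empty vector. The Zeb1 and Snail libraries lay close together, 1.56-fold and 1.58-fold above the control and short of the 2-fold rule. In the Ovol2 library ITGB1 was 5.25-fold lower, yet it remained the most abundant of the 10 genes there, followed by ITGA3 and ITGB6.

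Among the beta subunits that pair with ITGAV, ITGB6 was at 19.7, 50.1 and 18.0 FPKM in the Zeb1, Snail and Ovol2 libraries, against 86.5 in the empty vector library. It was lower in all 3 factor libraries, by 4.40-fold with Zeb1, 1.73-fold with Snail and 4.80-fold with Ovol2. ITGB5, the vitronectin receptor partner, was at 28.5, 18.6 and 1.99 FPKM in these libraries, against 15.5 FPKM in the empty vector library. It was 1.84-fold higher with Zeb1, short of the 2-fold rule (log2 ratio 0.84, past the rule at 1.05 under upper quartile scaling and at 1.14 after rescaling without RMRP and RPPH1), and 7.81-fold lower with Ovol2.

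ITGB8, which with ITGAV binds latent TGF-beta, was at 18.3, 15.8 and 5.36 FPKM in the Zeb1, Snail and Ovol2 libraries, against 15.7 in the empty vector library. Its log2 ratios of 0.21 with Zeb1 and 0.01 with Snail were the smallest in size of the 10 genes with Zeb1 and of the 9 with Snail, and both had the opposite sign after correction for transcript length (-0.04 and -0.21). The Snail ratio was also below 0 after centring (-0.13) and after rescaling without RMRP and RPPH1 (-0.03). ITGB3, known for its place on platelets and osteoclasts, was at 1.57 FPKM with Zeb1, 0.379 with Snail and 0.0292 with Ovol2, against 0.0814 with the empty vector. At this length and depth, 3 fragments correspond to about 0.0312 FPKM in the Ovol2 and 0.0258 in the empty vector library, so the Ovol2 value lay under that floor and no fold is given for it. The plain ratio of 19.3 with Zeb1 rests on about 9.5 fragments in the empty vector library, as estimated from depth and transcript length. ITGA2B, the platelet partner of ITGB3, did not exceed 0.103 FPKM in any library.

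The make-up of each class was described by the share of every gene in the summed FPKM of the 5 alpha or the 5 beta genes of the same library. The shares were not corrected for the trend with transcript length. In the Zeb1 library ITGAV held 45.2% of the alpha sum and ITGA5 32.7%, with ITGA3 at 13.2%, against 33.7%, 14.4% and 43.9% in the empty vector library. In the Snail library the shares were 37.1% for ITGAV, 26.7% for ITGA3, 19.5% for ITGA5 and 15.5% for ITGA1, against 4.48% for ITGA1 in the empty vector library. In the Ovol2 library ITGA3 held 67.8% of a sum that was smaller on the deposited scale, 49.2 FPKM against 226 FPKM in the empty vector library. ITGA3 was thus the leading alpha subunit of the 5 in the Ovol2 and empty vector libraries, and ITGAV in the Zeb1 and Snail libraries.

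Of the beta sum, ITGB1 held 82.2% with Zeb1, 78.9% with Snail and 60.1% with Ovol2, against 63.1% with the empty vector. Leaving ITGB1 out, ITGB6 made up 28.9% of the other 4 beta genes with Zeb1, 59.0% with Snail and 70.9% with Ovol2, against 73.4% with the empty vector. ITGB5 held 41.9%, 21.9% and 7.83% of this sum in the Zeb1, Snail and Ovol2 libraries, against 13.2% in the empty vector library. The Zeb1 library was therefore the one in which ITGB5 stood above ITGB6, at 1.45 to 1, against 0.180 to 1 in the empty vector library. As deposited, the Ovol2 library differed from the control in the size of the beta sum, 63.7 against 319 FPKM, more than in these shares. Unlike the shares, the sum depends on the scaling between libraries. The log2 ratio of ITGB1 with Ovol2 was -2.36 as deposited and -1.45 under upper quartile scaling.

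**Figure D4:**
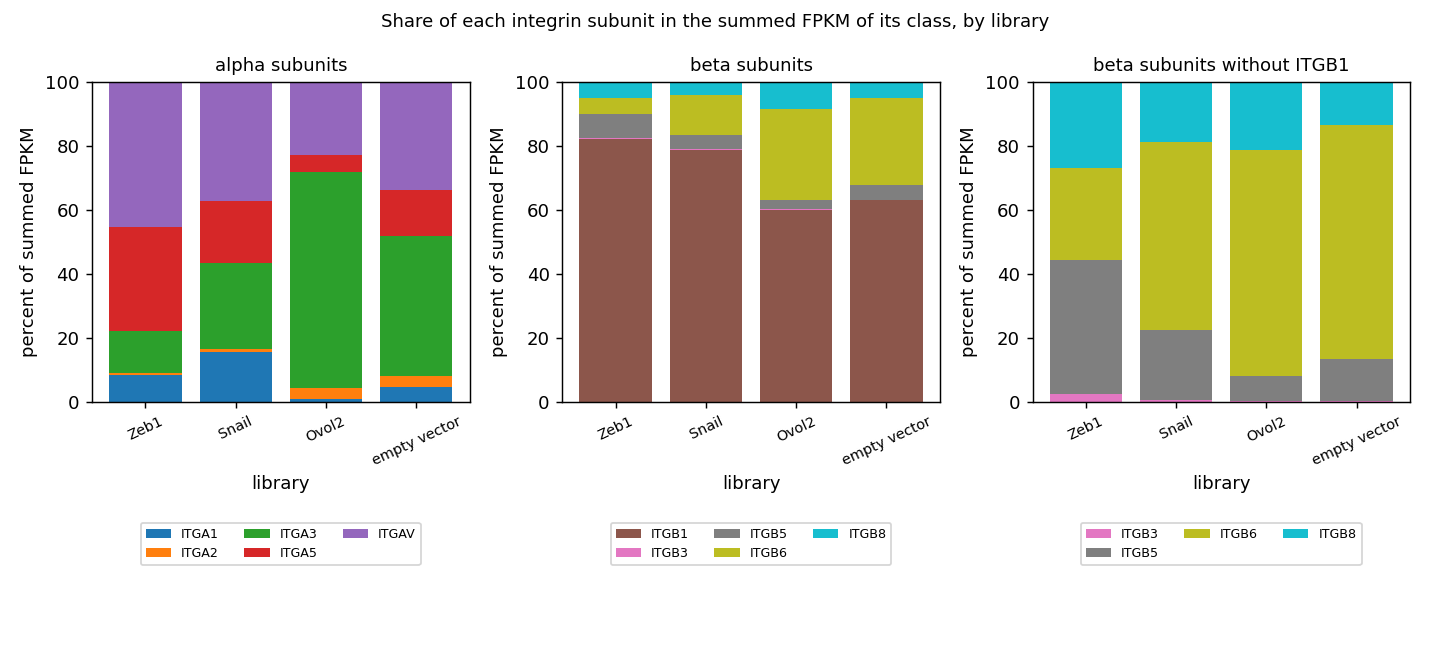
Percent of the summed FPKM (y axis) held by each subunit in the Zeb1, Snail, Ovol2 and empty vector libraries, for the 5 alpha genes, the 5 beta genes and the 4 beta genes other than ITGB1. ITGA5 takes 32.7% of the alpha sum with Zeb1, ITGA3 takes 67.8% with Ovol2, and ITGB6 lies below ITGB5 in the Zeb1 library.

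The order of the 4 libraries on the deposited scale fell into a few patterns. ITGA5, ITGAV and ITGB5 ran from Zeb1 through Snail and the empty vector to Ovol2, from high to low, and kept this order under all 4 other scalings. ITGB3 and ITGB8 had the same order, but the Ovol2 value of ITGB3 lay under the floor, and the empty vector stood above Snail for ITGB8 under 3 of the 4 scalings and above Zeb1 after correction for transcript length. ITGA1 differed in that Snail was above Zeb1, which held under all 4. For ITGB1 Zeb1 and Snail changed places under all 4. ITGA2, ITGA3 and ITGB6 ran from the empty vector through Snail and Zeb1 to Ovol2. The marker CDH1 of epithelial cells was at 9.99, 46.0 and 30.8 FPKM in the Zeb1, Snail and Ovol2 libraries, against 60.4 in the empty vector library, and the mesenchymal VIM at 181, 95.6 and 1.05, against 12.6 FPKM. ITGA2, ITGA3 and ITGB6 were like CDH1 in having their highest value in the empty vector library. The lowest CDH1 value was in the Zeb1 library and theirs, as deposited, in the Ovol2 library. After correction for transcript length Zeb1 was the lowest for these 3 as well (log2 ratios with Zeb1 and Ovol2 of -1.46 and -0.74 for ITGA2, -0.85 and -0.78 for ITGA3, and -2.07 and -1.45 for ITGB6), and for ITGB6 also under upper quartile scaling (-1.88 and -1.31).

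Of the integrin genes outside this group, 6 reached 1 FPKM in any library. The hemidesmosome subunits ITGA6 and ITGB4 were lower by 2-fold or more with Zeb1 (-1.61 and -1.73) and with Ovol2 (-1.84 and -2.87), and not with Snail (-0.19 and -0.20). Among all genes 8.49% were lower with Zeb1 and 25.1% with Ovol2. Under upper quartile scaling, of the 6 outside genes that passed the filter with Ovol2, 1 was lower and 1 higher (7.35% and 22.8% of all genes). The collagen receptor subunit ITGA11 was at 1.33 FPKM in the Zeb1 library and at 0.0811 FPKM or less in the Snail, Ovol2 and empty vector libraries. ITGAE (from 2.49 to 4.76 FPKM), ITGB2 (0.759 to 1.44) and ITGB7 (0.439 to 1.63), subunits best known from leukocytes, stayed low in all 4 libraries.

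Genes that encode ligands for the Arg-Gly-Asp receptors were set beside the integrins. With Zeb1, 11 of the 13 that passed the filter were called higher and 0 lower, where 4.52% of all genes were higher and 8.49% lower. Their median was 1.56, against -0.09 for all genes. Counting only the ligand genes that reached 1 FPKM in the control, 9 of 11 were higher. The glycoproteins FN1 (fibronectin, log2 ratio 5.41), FBN1 (5.22) and POSTN (5.01) and the matricellular CTGF (2.07) led those called higher among the 13. FBN1 and FBLN5, at 0.377 and 0.137 FPKM in the control, passed the filter only through the Zeb1 library. The median of 1.56 includes both, and neither could have been called lower. With Snail 5 of 13 were higher and 0 lower (median 0.90), where 1% of all genes were higher and 1.5% lower. The 5 were POSTN (3.28), FBN1 (2.81), FN1 (2.62), the elastic fibre protein FBLN5 (1.44) and MFGE8 (1.05). FBN1 and FBLN5 passed the filter only through the Snail library, and of the 11 that reached 1 FPKM in the control 3 were higher. The median of 0.90 includes both. With Ovol2 10 of 11 were lower (median -2.73), where 25.1% of all genes were, and 9 after correction for transcript length (7.55% of all genes). The 10 were led by FN1 (-3.62), thrombospondin THBS1 (-3.34), CTGF (-2.97) and the latent TGF-beta binding protein LTBP1 (-2.90). TGFB1, whose latent form ITGAV with ITGB6 or ITGB8 binds, was the exception with Ovol2, at 8.28 against 8.81 FPKM in the empty vector library. Vitronectin (VTN) did not exceed 0.176 FPKM in any library.

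Fibronectin and its receptor subunits can be set side by side. FN1 was at 3982 FPKM with Zeb1, 576 with Snail and 6.60 with Ovol2, against 92.7 with the empty vector, the same order of libraries as for ITGA5 and ITGAV. The 3 comparisons share the empty vector library, so this likeness over 4 libraries is a description and was given no test.

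Of the collagen genes, 6 of 8 were higher with Zeb1 and 0 lower (median 1.21), led by COL3A1 (5.82), COL1A1 (2.54), COL4A1 (1.57) and COL1A2 (1.25). Of these, COL3A1 and COL1A2 passed the filter only through the Zeb1 library, and 4 of the 6 that reached 1 FPKM in the control were higher. The median of 1.21 includes both. Among all genes 4.52% were higher and 8.49% lower with Zeb1, 1% and 1.5% with Snail, and 6.82% and 25.1% with Ovol2. These shares apply to the collagen and laminin lists and to the lists that follow. With Snail 2 of 7 were higher, COL3A1 (1.62) and the basement membrane collagen COL4A1 (1.08), and 0 lower. COL3A1 passed the filter only through the Snail library, 1 of the 6 that reached 1 FPKM in the control was higher, and after centring or correction for transcript length 1 of 7 was. With Ovol2 5 of 6 were lower, led by COL4A2 (-3.81), COL4A1 (-3.64), COL4A6 (-3.14) and COL4A5 (-2.58), with COL5A2 (-0.64) as the exception. The collagen count was 4 of 6 after correction for transcript length (7.55% of all genes) and 6 of 6 with a pseudocount of 0.1 (36.4%). Laminin genes had 4 of 8 lower with Zeb1, among them LAMA5 (-2.18), LAMB3 (-1.66) and LAMA3 (-1.49), and 1 higher, LAMB2 (1.08). With Snail 0 of 8 passed 2-fold, and with Ovol2 7 of 8 were lower, also after correction for transcript length, led by LAMA3 (-4.46), LAMB1 (-3.86), LAMC1 (-2.59) and LAMA5 (-2.54).

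Inside the cell, talins and kindlins bind the beta tails and activate integrins. Of 15 activator and adaptor genes, 3 were higher with Zeb1, the talin-binding KANK2 (2.33), kindlin-2 (FERMT2) and talin-2 (TLN2, 1.12), and 1 was lower, kindlin-1 (FERMT1, -2.03), with a median of 0.34. Among all genes 4.52% were higher and 8.49% lower. FERMT1 was at 3.57, 15.5 and 6.43 FPKM in the Zeb1, Snail and Ovol2 libraries, against 17.6 in the empty vector library, and FERMT2 at 48.9, 23.3 and 2.69, against 11.5 FPKM. In the empty vector and Ovol2 libraries kindlin-1, the epithelial form, was thus the higher of the pair, and in the Zeb1 and Snail libraries kindlin-2 was. With Snail 0 of 15 passed 2-fold (median 0.20). With Ovol2 8 of 15 were lower and 0 higher, where 25.1% of all genes were lower, at a median of -1.29 against -0.51 for all genes. After correction for transcript length 2 of 15 were lower and 1 higher (7.55% and 9.79% of all genes). Under upper quartile scaling 4 were lower and 2 higher (7.35% and 22.8% of all genes). After rescaling without RMRP and RPPH1 10 were lower and 0 higher (32.3% of all genes were lower). Those lower on the deposited scale included talin-1 (TLN1, -2.34), KANK1 (-1.84), LIMS1 (-1.77) and FERMT2 (-1.76).

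Of 23 focal adhesion signalling and scaffold genes, 3 were higher with Zeb1, the paxillin relative TGFB1I1 (1.69), tensin-3 (TNS3, 1.59) and the Cas-family scaffold NEDD9 (1.51), and 1 lower, tensin-4 (TNS4, -2.92), with a median of 0.07. Among all genes 4.52% were higher and 8.49% lower. The tensins, which also bind beta tails, differed as the kindlins did with Zeb1. TNS3 was at 64.5, 30.7 and 1.39 FPKM in the Zeb1, Snail and Ovol2 libraries, against 20.8 in the empty vector library, and TNS4 at 8.68, 41.6 and 17.0, against 72.5 FPKM. With Snail 0 of 23 passed 2-fold (median 0.20). With Ovol2 17 of 23 were lower (median -1.34), where 25.1% of all genes were. The count was 13 after centring, 7 under upper quartile scaling (7.35% of all genes) and 7 after correction for transcript length (7.55%). It was larger with a pseudocount of 0.1, at 20 (36.4%), and after rescaling without RMRP and RPPH1, at 22 (32.3%). Those lower on the deposited scale included TNS3 (-3.19), alpha-actinin ACTN1 (-3.08) and the filamin FLNA (-2.78).

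**Figure D5:**
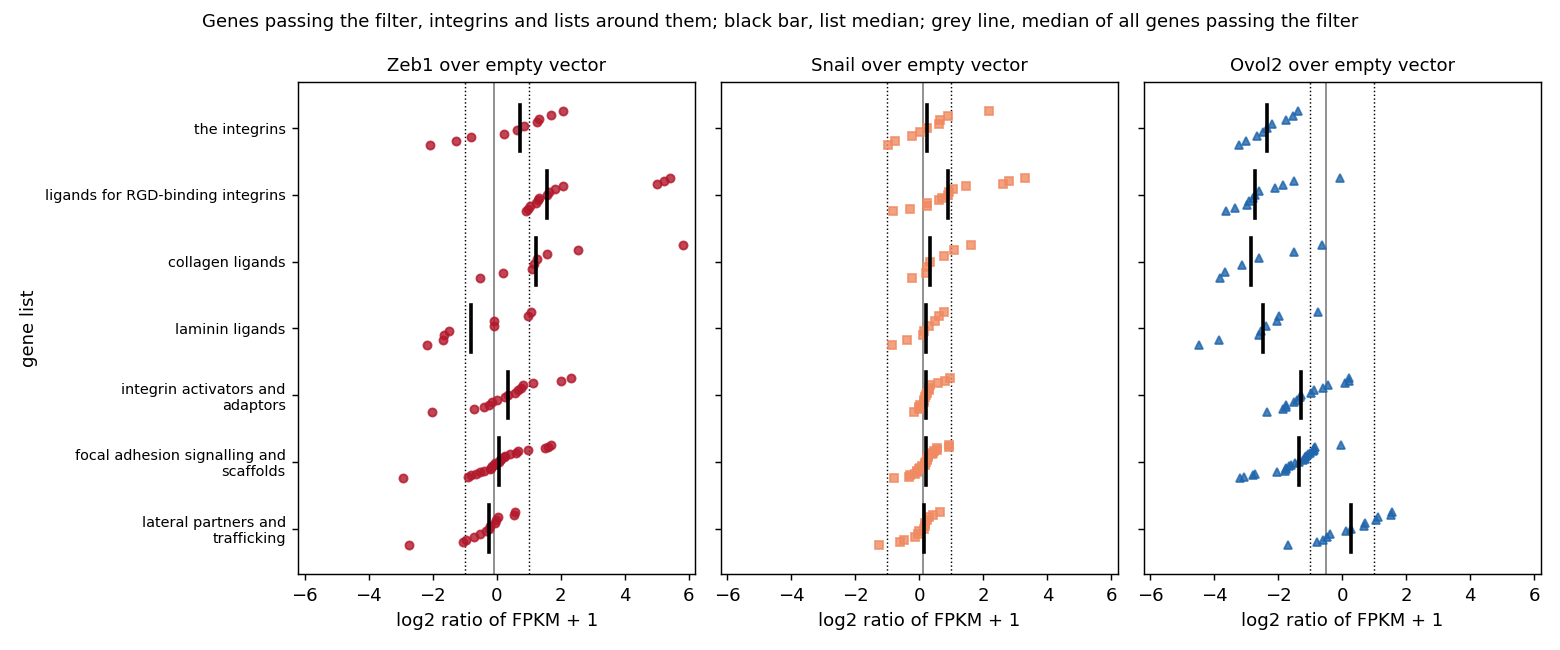
Log2 ratios of FPKM + 1 (x axis) of the genes that passed the filter among the integrins and the lists around them, for the Zeb1, Snail and Ovol2 comparisons; each point is a gene, black bars are list medians, the grey line is the median of all genes passing the filter and dotted lines mark 2-fold. The medians of the integrins and of the Arg-Gly-Asp ligands lie at 0.74 and 1.56 with Zeb1 and at -2.36 and -2.73 with Ovol2. These Zeb1 medians include ITGB3, FBN1 and FBLN5, which passed the filter only through the Zeb1 library.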

How the data were processed

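Messenger RNA of 4 MCF10A libraries, 1 per group, was measured by sequencing of TruSeq RNA libraries. The authors deposited 3 tables of 25360 rows, each with the empty vector and 1 factor library. The deposited values were taken as FPKM since Cufflinks and Cuffdiff stand in the submitters' processing notes, beside TopHat and hg19; no header names the unit, and no source used here gives versions, annotation or scaling between libraries. Per the file headers the tables also hold the authors' own signed fold, a score written as minus the inverse where the factor library is lower, and an adjusted p-value. The deposited p-values compare 1 library with 1 library and were not used; the fold served as an alternative setting.

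Genes listed more than once (43 surplus rows) were added up by symbol. Log2 ratios used a pseudocount of 1 FPKM, a filter of 1 FPKM in either library and a 2-fold rule of size, with no test (Python 3.11.15, pandas 2.3.3). Steps were tested on simulated data. Transcript lengths were the longest GENCODE 29 transcript per symbol, found for 94.7% to 94.9% of genes passing the filter, and the running median covered 301 genes. Depth came from the value of 1 fragment in genes with a single transcript. Estimated fragments and floors cover counting error only.

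The members and the lists were chosen with earlier results of these data known. The text names all 10 genes, other integrins at 1 FPKM or more in any library, up to 4 genes per list with the largest ratios, the 3 delivered factors, CDH1 and VIM, and, where a count is 5 or fewer, its genes. Some genes under this rule are not reported here. Library markers and the genes set side by side with these (the kindlins, the tensins, FN1, TGFB1, VTN and ITGA2B) were added to the text after seeing the values.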

Additional observations from a re-analysis of the deposited data

How the results depend on the processing

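With 1 library per group, no replicate could be left out. No paired analysis was possible because each group held 1 library. The count of integrins past 2-fold with Zeb1 was 6, and 5 to 7 under the alternatives. With Ovol2 it was 9, and 6 to 9. With Snail it was 1, and 2 with a pseudocount of 0.1, after centring, under upper quartile scaling, after rescaling without RMRP and RPPH1, after correction for length and in the authors' deposited fold. None of the called integrins changed sign under any alternative run. Over all genes, the count past 2-fold with Zeb1 was 1551, and 2426 with a pseudocount of 0.1 and 2557 in the authors' deposited fold. With Snail it was 292, and 578 with a pseudocount of 0.1, 193 with a filter of 5 FPKM and 630 in the authors' deposited fold. With Ovol2 it was 3771, and 1943 after correction for length. The causes were not tested. The share of called genes that were higher moved with the scaling. With Zeb1 it was 34.8%, and 48.1% after centring (a shift of 0.12 in log2), 53.9% under upper quartile scaling, 62.7% after rescaling and 50.8% after correction for length. With Snail it was 40.1%, and 23.7% after centring (a shift of -0.14) and 56.1% under upper quartile scaling. With Ovol2 it was 21.4%, and 32.8% after centring (a shift of 0.17), 75.7% under upper quartile scaling and 56.5% after correction for length. It moved the other way, to 13%, after rescaling without RMRP and RPPH1. Of the list counts, 38 of 42 stayed within 1.5 times with a filter of 5 FPKM or after centring, and 89 of 105 under a pseudocount of 0.1, upper quartile scaling, rescaling, correction for length and the deposited fold, which were chosen for the lists after seeing the data. Each list count joined higher and lower genes, so a change of direction was not scored, and 0 against 0 stood as unchanged. The activators with Ovol2 had 0 higher and 8 lower as deposited, and 2 and 4 under upper quartile scaling, and were within 1.5 times. Over every alpha and beta gene of the tables, ITGA6 held 15.8% of the alpha sum with Zeb1, 40.4% with Snail and 55.6% with Ovol2, against 51.9% with the empty vector, and the shares of the 10 genes were smaller accordingly.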

Other observations

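Membrane partners and trafficking regulators of integrins were also listed. Of 13 such genes, 4 were higher by 2-fold or more with Ovol2 and 1 lower, where 6.82% of all genes were higher and 25.1% lower, and their median was 0.29 against -0.51 for all genes passing the filter. After correction for transcript length 6 were higher and 1 lower (9.79% and 7.55% of all genes). Under upper quartile scaling 8 were higher and 0 lower, where 22.8% of all genes were higher and 7.35% lower. Rescaling without RMRP and RPPH1 left 2 higher and 1 lower (4.84% and 32.3% of all genes). The difference between this list and the integrins was not tested. The higher ones were the endosomal GTPase RAB25 (log2 ratio 1.56), which is known to bind ITGB1, the tetraspanins CD9 (1.53) and CD82 (1.06) and the galectin LGALS3 (1.11). The lower one was caveolin CAV1 (-1.70). CD9 was at 57.0 FPKM with Zeb1, 73.5 with Snail and 329 with Ovol2, against 113 with the empty vector. With Zeb1, RAB25 (-2.74) and CD82 (-1.05) were lower and 0 of 13 higher, where 8.49% of all genes were lower and 4.52% higher. With Snail RAB25 (-1.25) was lower, where 1.5% of all genes were.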
